A study of Mus musculus with 16 samples.

Results

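The numbered Gpr genes are a naming series for G protein-coupled receptors and related multipass membrane proteins, many of them named before any ligand was known. Members were the genes whose symbol is Gpr followed by a number, with at most 1 letter and 1 further digit after it, and whose raw counts summed over 16 libraries reached at least 20. Of 53700 gene lines in the deposited files, 77 had such a symbol, and 55 of those were members. The other 22 comprised 13 genes with no count and 9 with 1 to 19 counts. The members were chosen by this summed count, which took in all 4 groups together. Just outside it lay Gpr21 with 14 counts and Gpr152 with 13, and just inside lay Gpr55 with 30 and Gpr12 and Gpr176 with 31 each.

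G protein-coupled receptors carry signals from lipids, nucleotides, protons and peptides to heterotrimeric G proteins inside the cell, and receptor kinases, arrestins and RGS proteins end the signal. Microglia, the resident macrophages of the brain, are known for receptors that sense the state of neighbouring cells, such as the nucleotide receptor P2ry12 and the lysophosphatidylserine receptor Gpr34. Others, such as the fatty acid receptor Gpr84, are known for their rise in activated myeloid cells. Several proteins of the naming series, among them Gpr155 and Gpr137b, sit in lysosomes and are not classical surface receptors.

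RNA was sequenced in bulk from microglia sorted out of whole mouse brain, the gate taking DAPI-negative events that were CD11b-high, CD45-intermediate and Ly6c-negative. Ercc1 encodes a nuclease subunit needed for DNA repair. Animals with the genotype label ko for Ercc1 (KO) were set against animals labelled wt (WT), at ages of 6 and 12 weeks, all on a cross of C57Bl6J and FVB, with 4 libraries in each of the 4 groups. The labels name neither the Ercc1 allele nor litters. Each 6-week group held 2 males and 2 females, and each 12-week group 3 males and 1 female. In bulk RNA, fewer cells of a type and less RNA per cell cannot be told apart.

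Total counts ranged from 7882182 to 22142972 per library. Ercc1, at 7.46 to 49.2 CPM (counts scaled to a common library size) in the 8 WT libraries, was at 0.425 to 6.77 CPM in the 8 KO libraries. The 12-week WT replicate 5_6, labelled male, held RNA of Xist (350 CPM) beside Y-linked genes (113 CPM in sum). In a principal component analysis of log2(CPM + 1), the second component set 12-week WT replicate 3 apart at -97.1, and the third set 12-week WT replicate 8 apart at -77.9. The 12-week results of Gpr34, Gpr84, Gpr155, Gpr165 and Gpr183 are therefore also given without these libraries. All 8 microglia markers checked were present in every group and summed to 47590.0 CPM or more in each library, while T and NK cell markers summed to at most 7.42 CPM. Neuronal markers summed to 580.1 to 1731 CPM, astrocyte markers to 257 to 434 and oligodendrocyte markers to 203 to 360. B cell markers summed to 974 to 1230 CPM, with Cd79a at 0 in all groups but 6-week KO.

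The 55 members took 0.395% to 0.661% of a library's counts, and a single gene, Gpr34, held 51.6% to 70.6% of the members' share. In 6-week WT the members took 0.533% to 0.59% of counts, and in 6-week KO 0.443% to 0.471%. In 12-week WT they took 0.581% to 0.661%, and in 12-week KO 0.395% to 0.464%. At both ages the ranges of WT and KO libraries did not overlap, with the KO libraries lower. Because Gpr34 weighs so much in this sum, it describes mostly that gene.

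Counts were spread unevenly over the members. Above 1000 summed counts there were 16 members, and below it 39. Of the 55, 16 had a count in every library and 19 had one in 8 or fewer libraries. More than 50% of the counts of 9 members came from 1 library: Gpr151, known from the habenula of the brain, had 97.1% of its counts in 6-week KO replicate 4, and Gpr141 had 87.5% in 6-week KO replicate 2. The filter on low counts kept 36 members for testing and left out 19.

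**Figure D1:**
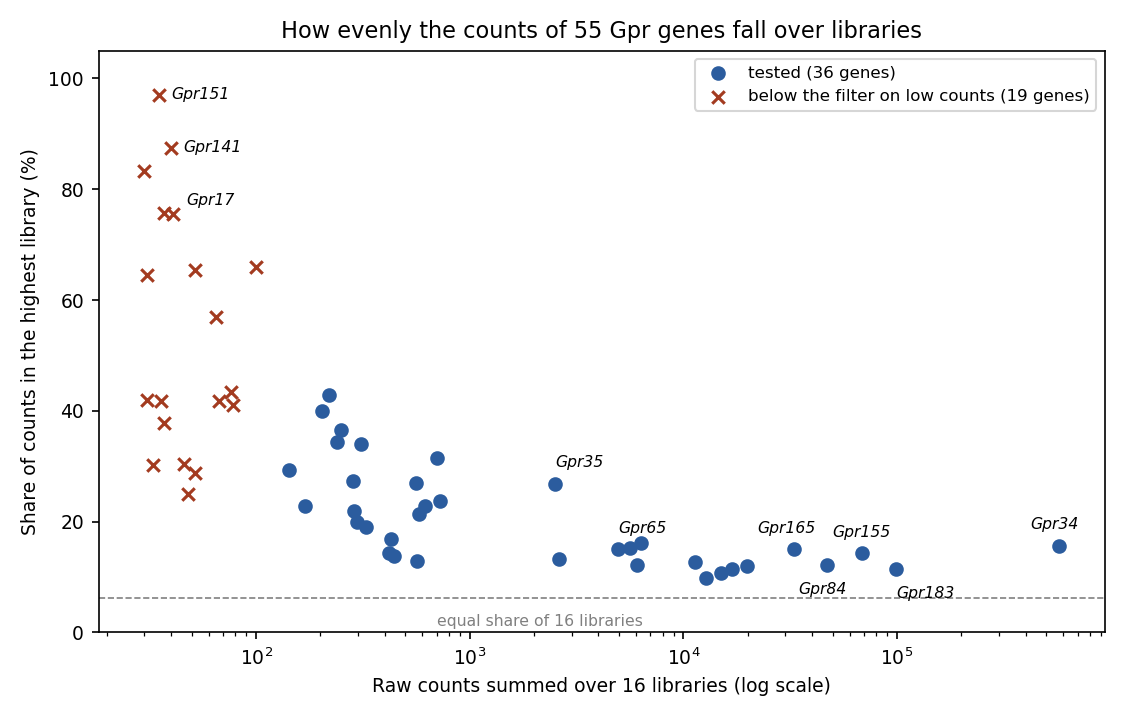
Raw counts summed over 16 libraries (x axis, log scale) against the share of a gene's counts that came from its highest library (y axis, percent), 1 point per member, with tested and untested members marked. The 10 members with the most counts lie between 9.78% and 15.6%, above the dashed line of an equal share over 16 libraries. Members with the fewest counts, such as Gpr151 at 97.1%, can rest on a single library.

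Levels of different genes were compared per kilobase of exon, using GENCODE lengths, which exist for 54 of the 55 members. In 6-week WT, Gpr34 stood at 1610.2 CPM per kilobase, Gpr183 at 201, Gpr84 at 109, Gpr165 at 79.1 and Gpr155 at 72.1. Gpr108 followed at 35.4 CPM per kilobase, Gpr160 at 23.3 and Gpr180 at 14.4. In 12-week KO the order below Gpr34 was another: Gpr84 stood at 214 CPM per kilobase, Gpr183 at 151, Gpr155 at 32.8 and Gpr165 at 9.62, where Gpr65 had reached 28.1.

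The upstream sequences of Gpr84, Gpr165, Gpr155 and Gpr183, which passed a test described further on, are shown because they place side by side the starts of genes that moved together or apart. RefSeq windows of the 250 bases before the annotated start (build GRCm38.p6, not the GRCm39 build of the count files) were found for 39 of the 55 members. Gpr34 passed that test as well but had no such window. Capitals mark matches, on either strand, to the TATA box, searched as TATAAA, to the CCAAT box, searched as those letters, and to the GC box, searched as GGGCGG. The sequences run 5′ to 3′ on the gene's own strand.
Gpr84, chr15:103310439-103310688, minus strand: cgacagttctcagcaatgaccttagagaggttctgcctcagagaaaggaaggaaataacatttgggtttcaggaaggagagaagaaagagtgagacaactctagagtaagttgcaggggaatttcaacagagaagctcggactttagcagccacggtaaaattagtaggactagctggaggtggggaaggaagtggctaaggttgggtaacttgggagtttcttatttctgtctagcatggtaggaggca
Gpr165, chrX:96713218-96713467, plus strand: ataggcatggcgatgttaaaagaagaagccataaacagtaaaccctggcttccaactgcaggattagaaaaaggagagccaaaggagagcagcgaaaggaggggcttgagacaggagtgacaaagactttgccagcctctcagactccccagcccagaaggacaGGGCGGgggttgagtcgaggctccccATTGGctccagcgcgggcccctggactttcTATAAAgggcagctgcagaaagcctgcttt
Gpr155, chr2:73386481-73386730, minus strand: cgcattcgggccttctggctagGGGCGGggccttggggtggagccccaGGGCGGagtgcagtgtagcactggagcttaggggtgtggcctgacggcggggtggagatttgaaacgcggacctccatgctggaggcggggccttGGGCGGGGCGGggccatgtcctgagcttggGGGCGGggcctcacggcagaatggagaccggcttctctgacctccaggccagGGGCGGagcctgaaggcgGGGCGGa
Gpr183, chr14:121965194-121965443, minus strand: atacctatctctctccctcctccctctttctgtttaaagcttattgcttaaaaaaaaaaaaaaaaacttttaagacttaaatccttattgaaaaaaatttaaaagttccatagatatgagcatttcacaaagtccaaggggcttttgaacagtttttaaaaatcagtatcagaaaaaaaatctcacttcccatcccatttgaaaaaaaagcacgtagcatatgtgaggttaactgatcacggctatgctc

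The 4 windows had different make-ups. That of Gpr155 was 70.4% G and C and held 7 matches to GGGCGG, of which 2 overlap by 1 base. That of Gpr165 was 54.4% G and C and held 1 match to each of the 3 motifs, with the TATA box from 30 to 25 bases before the start. The windows of Gpr84, at 46.0% G and C, and of Gpr183, at 32.0%, held none of the 3 motifs. Among all 32851 promoter windows of this length, 12.4% held TATAAA, 33.8% CCAAT and 32.7% GGGCGG. Of 51 windows of members, 9.8% held TATAAA, 45.1% CCAAT and 39.2% GGGCGG.

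Motifs of factors that act in macrophages were searched on both strands of the same windows. The E-box CACGTG was in 6.02% of all windows and in none of the members' windows, and the cAMP element TGACGTCA was in 1.55% and, among members, in that of Gpr6. The PU.1 motif GAGGAAGT was in 2.44% of all windows and in those of Gpr137, Gpr137c and Gpr55. The paired interferon-factor (IRF) motif was in 2.98% of all windows and, among members, in those of Gpr18 and Gpr19, and the NF-kB motif was in 0.356% and in none of the members' windows. These 5 motifs did not occur in the 4 windows shown.

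KO and WT libraries were compared at each age with edgeR's quasi-likelihood test over 17090 genes, with Benjamini-Hochberg adjustment and a threshold of 0.05. At 6 weeks 2 of the 36 tested members passed, or 5.56%, where 0.872% of all genes tested did: Gpr84 was higher in KO and Gpr165 lower. Higher calls made up 0.796% of all genes and lower calls 0.0761%. An unadjusted p under 0.05 was reached by 6 members, where 7.31% of all genes reached it. At 12 weeks 5 passed, or 13.9%, against a background of 2.98%: Gpr84 was higher, and Gpr34, Gpr155, Gpr165 and Gpr183 were lower. Split by direction, the 1 member called higher at 12 weeks was 2.78% of members against 2.03% of all genes, and the 4 called lower were 11.1% against 0.954%. An unadjusted p under 0.05 was reached by 8 members, against 14.4% of all genes. The 5 genes that passed were the 5 with the most counts among members, and they had been singled out with earlier results of these data known. With the median of all genes at -0.02 at 6 weeks and -0.03 at 12 weeks, the median log2 change of the tested members was 0.05 and 0.15.

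**Figure D2:**
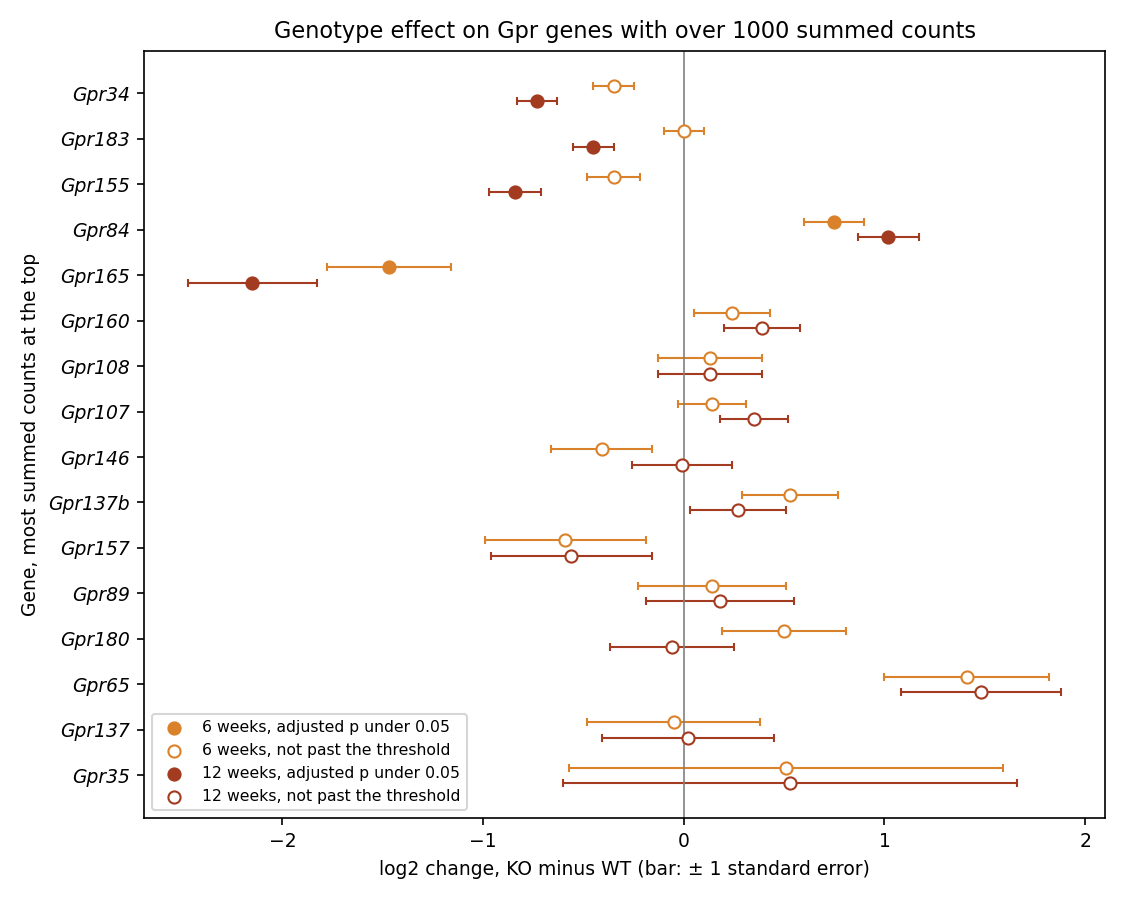
Log2 change of KO against WT (x axis, with a bar of 1 standard error) for the 16 members with more than 1000 summed counts (y axis), at 6 weeks and 12 weeks, with filled points for an adjusted p under 0.05. Gpr84 passed to the right of 0 and Gpr165 to its left at both ages, and Gpr34, Gpr155 and Gpr183 passed to the left of 0 at 12 weeks.

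Gpr84 (ENSMUSG00000063234), a receptor for medium-chain fatty acids, was the only member called higher in KO at either age. At 6 weeks the 4 WT libraries, replicates 1 to 4, had 189, 184, 202 and 179.9 CPM, and the 4 KO libraries 309, 332, 305 and 326 CPM. At 12 weeks the WT libraries 3, 4, 5_6 and 8 had 196, 198, 149.6 and 183 CPM, and the KO libraries 1 to 4 had 336, 508, 295 and 338 CPM. The genotypes did not overlap at either age, the KO libraries being the higher ones, and 12-week KO replicate 2 was highest of all. The mean rose from 189 ± 9.74 to 318 ± 12.6 CPM at 6 weeks (SD, n = 4 each), which is a log2 change of 0.75 ± 0.15 (SE) with an adjusted p of 0.0202 in edgeR's test. At 12 weeks it rose from 182 ± 22.4 to 369 ± 94.5 CPM, which is a log2 change of 1.02 ± 0.15 with an adjusted p of 0.00078.

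With single libraries or pairs left out, the 12-week change of Gpr84 was 0.84 without KO replicate 2 (adjusted p = 0.000653, edgeR), 0.96 without WT replicate 5_6 (0.00351) and 1.12 without WT replicates 3 and 8 (0.00903). At 6 weeks the call was lost when any 1 of the 8 libraries of that age was left out, with a log2 change of 0.71 to 0.79 and an adjusted p of up to 0.103.

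A further limit of Gpr84 comes from its locus. In GENCODE, 39.5% of its exon length is shared with Gm49482, a gene on the opposite strand, and whether reads were counted by strand is not given in the sources used here. Gm49482 had 74.6 ± 4.51 CPM in 6-week WT and 125 ± 5.63 in 6-week KO, a log2 change of 0.75 ± 0.16 (adjusted p = 0.0354, edgeR). It had 69.7 ± 9.91 CPM in 12-week WT and 147 ± 36.2 in 12-week KO, a log2 change of 1.08 ± 0.16 (adjusted p = 0.000975, edgeR). Without strand, reads from this pair cannot be told apart.

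Gpr65, a receptor that senses extracellular protons, had no overlap between genotypes at either age, with the KO libraries above, but it did not pass the test. At 6 weeks its WT libraries had 12.6, 14.3, 5.53 and 9.71 CPM and its KO libraries 33.3, 19.03, 39.3 and 19.4 CPM. At 12 weeks the WT libraries had 14.7, 9.88, 22.15 and 37.4 CPM and the KO libraries 46.1, 78.9, 55.5 and 52.3 CPM. The log2 change was 1.41 ± 0.41 at 6 weeks (adjusted p = 0.194, edgeR) and 1.48 ± 0.40 at 12 weeks (adjusted p = 0.0636, edgeR). At 6 weeks Gpr65 was called by DESeq2 and by edgeR with no filter on low counts. At 12 weeks it was called by DESeq2, and by edgeR with no filter, with a minimum count of 50, with no sex term and without WT replicate 8 (log2 change 1.92, adjusted p = 0.0181). Like Gpr84 it has an overlapping gene on the opposite strand, Gm47566, which shares 24.7% of its exon length and had 4.07 ± 1.84, 14.2 ± 5.48, 8.24 ± 5.40 and 26.7 ± 7.54 CPM in 6-week WT, 6-week KO, 12-week WT and 12-week KO.

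Gpr84 and Gpr65 were the 2 members, 5.56% of those tested, whose KO libraries all lay above the WT libraries at 6 weeks, where 4.92% of all genes did so. The same 2 did so at 12 weeks, against 5.13% of all genes, so the count itself was near the background. The summed level of 7 markers of border-associated macrophages moved in the same direction: 51.1 to 94.4 CPM in 6-week WT, 129.6 to 291 in 6-week KO, 7.79 to 54.2 in 12-week WT and 112 to 187 in 12-week KO, with all 7 detected in each group. Of these 7, Ms4a7 was called higher at 12 weeks. The 6 monocyte markers summed to 5.93 to 17.9, 8.11 to 29.7, 2.85 to 10.7 and 13.1 to 27.7 CPM in the same order of groups, without overlap between genotypes at 12 weeks, with Ly6c2 at 0 in all but 6-week WT and Chil3 likewise. Their part in the results for Gpr84 and Gpr65 was not tested.

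**Figure D3:**
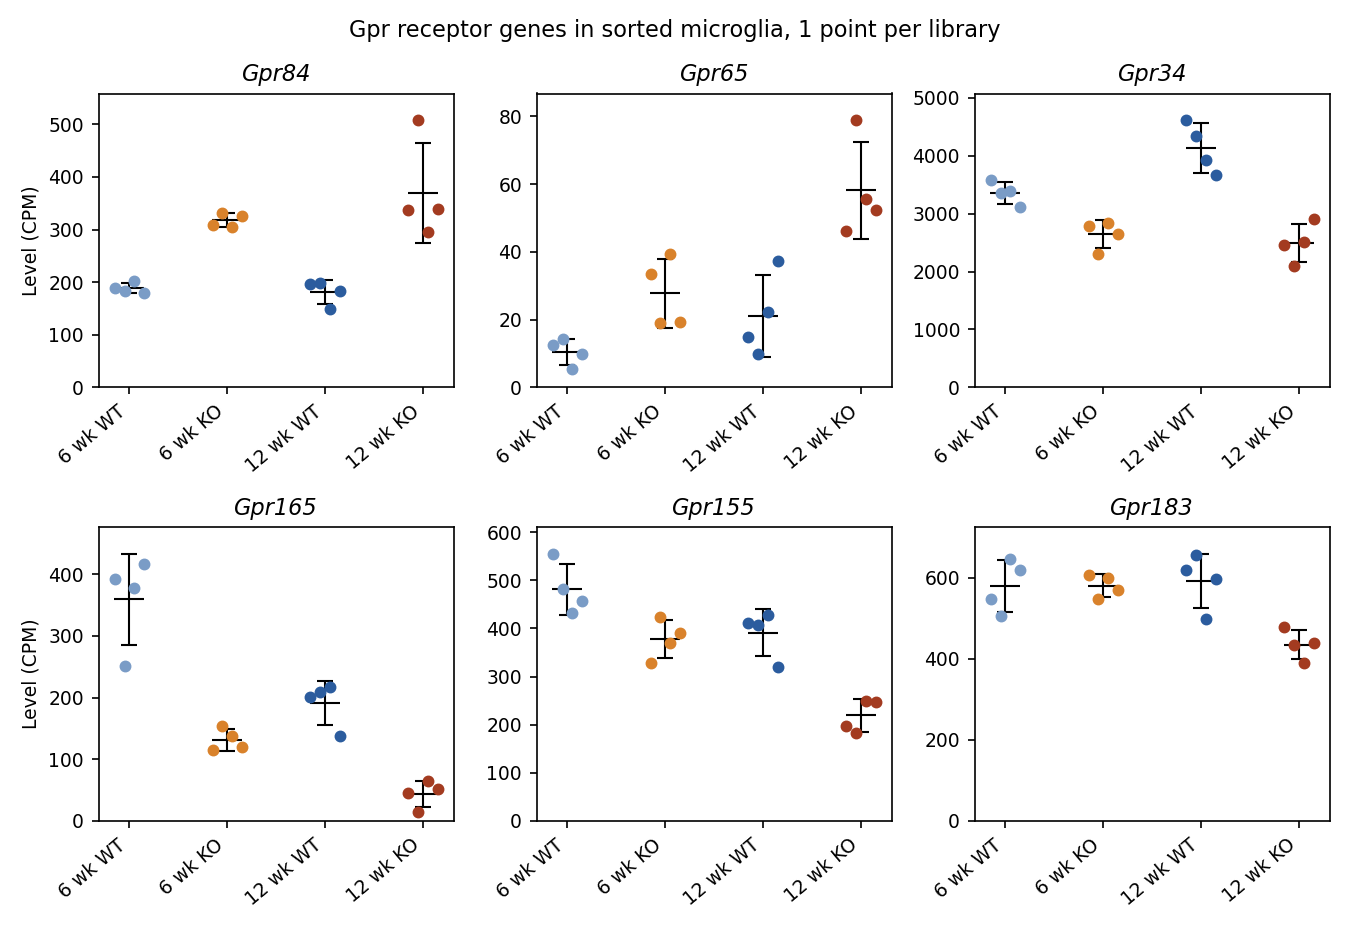
Level in CPM (y axis, from 0) of 6 members in each library, grouped by age and genotype (x axis), with the mean and SD of 4 libraries in black. Gpr84 and Gpr65 lie higher in KO libraries at both ages, Gpr34, Gpr165 and Gpr155 lie lower in KO at both ages, and Gpr183 lies lower in KO at 12 weeks.

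Gpr34 (ENSMUSG00000040229), the lysophosphatidylserine receptor, was the most abundant member in every group. At 6 weeks the WT libraries had 3583, 3364, 3395 and 3119.7 CPM and the KO libraries 2779, 2302, 2843 and 2648 CPM. At 12 weeks the WT libraries had 4616, 4338, 3923 and 3663 CPM and the KO libraries 2455, 2098, 2506 and 2910.0 CPM. All KO libraries lay below all WT libraries at both ages, and WT libraries lay higher at 12 than at 6 weeks without overlap. At 6 weeks the means were 3365 ± 190.3 CPM in WT and 2643 ± 241 CPM in KO, a log2 change of -0.35 ± 0.10 that did not pass (adjusted p = 0.185, edgeR). At 12 weeks Gpr34 fell from 4135 ± 424 to 2492 ± 332 CPM, which is a log2 change of -0.73 ± 0.10 with an adjusted p of 0.000573 in edgeR's test.

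The 12-week fall of Gpr34 was called with each library left out in turn, with log2 changes from -0.80 to -0.64. Without WT replicates 3 and 8 it was -0.71 (adjusted p = 0.00623, edgeR) and without WT replicate 5_6 it was -0.73 (0.00187). At 6 weeks DESeq2 called it as well, with an adjusted p of 0.0432. The summed level of 8 markers that define microglia also lay lower in KO at both ages. The sum was 66041 to 72861 CPM in 6-week WT, 55210.2 to 65037 in 6-week KO, 59228 to 66427 in 12-week WT and 47590.0 to 49727 in 12-week KO. Of these 8, P2ry12 was called lower in KO at 6 weeks, and P2ry12 and Cx3cr1 at 12 weeks. Their part in the falls of Gpr34, Gpr165, Gpr155 and Gpr183 was not tested.

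Gpr165 (ENSMUSG00000031210), an orphan receptor, had the largest log2 change of the 5 called members at both ages. In the 6-week samples WT libraries had 392, 251, 378 and 416 CPM and the KO libraries 116, 154, 138 and 119 CPM. Among 12-week samples, WT libraries had 201, 208, 217 and 138 CPM and the KO libraries 45.4, 14.1, 64.4 and 51.0 CPM. The lowest WT library of each age, replicate 2 at 6 weeks and replicate 8 at 12 weeks, still lay above every KO library of that age. The mean fell from 359 ± 74.2 to 132 ± 17.6 CPM at 6 weeks, which is a log2 change of -1.47 ± 0.31 (adjusted p = 0.038, edgeR). It fell from 191 ± 35.8 to 43.7 ± 21.3 CPM at 12 weeks, which is a log2 change of -2.15 ± 0.32 (adjusted p = 0.00117, edgeR).

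The 12-week change of Gpr165 was -1.84 without KO replicate 2 (adjusted p = 0.000267, edgeR), its lowest library, -2.04 without WT replicate 5_6 (0.00417) and -2.34 without WT replicates 3 and 8 (0.00509). At 6 weeks 7 of the 16 fits that left out 1 library called it, and the adjusted p reached 0.141. No annotated exon of another gene overlaps those of Gpr165, Gpr34 or Gpr183. The ratio of Gpr84 counts to Gpr165 counts within a library, which needs no scaling between libraries, was 0.432 to 0.734 in 6-week WT, 2.16 to 2.73 in 6-week KO, 0.689 to 1.32 in 12-week WT and 4.58 to 35.9 in 12-week KO. No KO library overlapped a WT library in it. Within each age this had to follow, because the genotypes already did not overlap in Gpr84 or in Gpr165, in opposite directions. The ratio is therefore no separate evidence.

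**Figure D4:**
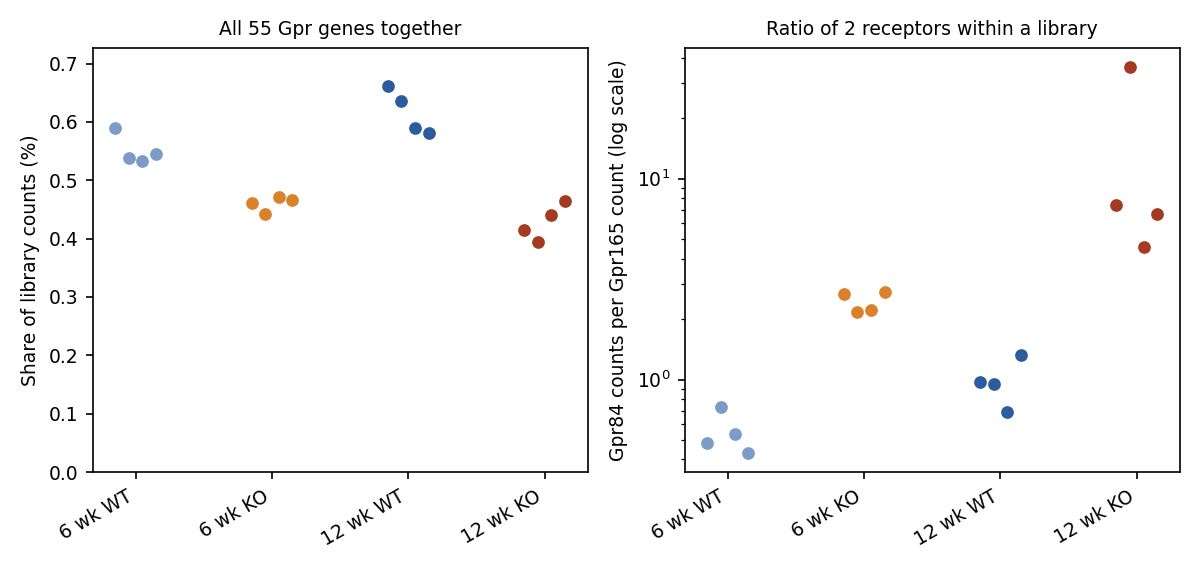
Left, share of each library's counts held by the 55 members (y axis, percent, from 0); right, Gpr84 counts per Gpr165 count (y axis, log scale), 1 point per library by group. The members' share lies lower in KO at both ages, and the ratio runs from 0.432 to 1.32 in WT libraries and from 2.16 to 35.9 in KO libraries.

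Gpr155 (ENSMUSG00000041762), a lysosomal membrane protein that senses cholesterol, lay lower in KO at both ages and passed at 12 weeks. In the 6-week samples WT libraries had 555, 482, 432 and 457 CPM and the KO libraries 329, 423, 370.2 and 391 CPM. Among 12-week samples, WT libraries had 412, 407, 427 and 321 CPM and the KO libraries 197, 183, 249 and 247 CPM. The groups of each age did not overlap, although at 6 weeks the highest KO and the lowest WT library were 423 and 432 CPM. The means at 6 weeks were 482 ± 53.2 and 378 ± 39.5 CPM, which is a log2 change of -0.35 ± 0.13 (adjusted p = 0.42, edgeR). At 12 weeks Gpr155 fell from 392 ± 48.1 to 219 ± 34.2 CPM, which is a log2 change of -0.84 ± 0.13 (adjusted p = 0.0014, edgeR).

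Gpr155 was called at 12 weeks with each library left out in turn, from -0.90 to -0.75. Without WT replicates 3 and 8 its change was -0.93 (adjusted p = 0.00485, edgeR) and without WT replicate 5_6 it was -0.76 (0.00749). In GENCODE 4.28% of its exon length is shared with Gm13709 and Gm13703 on the opposite strand.

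Gpr183 (ENSMUSG00000051212), the oxysterol receptor that steers migrating immune cells, differed by genotype at 12 weeks. In the 6-week samples WT libraries had 549, 507, 646 and 619 CPM and the KO libraries 608, 547, 599 and 570.5 CPM, overlapping throughout. Among 12-week samples, WT libraries had 619, 656, 499 and 598 CPM and the KO libraries 478, 434, 391 and 438 CPM, with no overlap. The 6-week means were 580.3 ± 63.7 and 581 ± 27.6 CPM, which is a log2 change of 0.00 with a 95% interval of -0.20 to 0.20. At 12 weeks it fell from 593 ± 67.1 to 435 ± 35.5 CPM, which is a log2 change of -0.45 ± 0.10 (adjusted p = 0.0246, edgeR).

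The call of Gpr183 was the least firm at 12 weeks. It was lost without WT replicates 3 and 8 (log2 change -0.37, adjusted p = 0.212, edgeR) and without KO replicate 2 (-0.43, adjusted p = 0.0775), and kept without WT replicate 5_6 (-0.50, 0.0112). Of the 16 fits that left out 1 library, 8 called it. The 4 members with all KO libraries below all WT libraries at 12 weeks were these 4 receptors, 11.1% of those tested, where 3.08% of all genes did so. At 6 weeks they were Gpr34, Gpr155, Gpr165 and the ciliary receptor Gpr157, again 11.1%, against 2.96% of all genes. Gpr157 had 45.6 ± 5.15 CPM in 6-week WT and 30.3 ± 10.5 in 6-week KO, and did not pass the test.

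The remaining 5 of the 10 members with the most counts did not pass in any of the 5 comparisons over all libraries. The orphan receptor Gpr160 had 89.5, 96.2, 103 and 106 CPM in 6-week WT and 105, 103, 126 and 130.1 CPM in 6-week KO. It had 81.2, 110.1, 104 and 95.7 CPM in 12-week WT and 78.2, 158, 153 and 126 CPM in 12-week KO. The KO libraries spread wider at 12 weeks, with 1 below and 3 above the WT libraries. The log2 change of Gpr160 was 0.24 ± 0.19 at 6 weeks (adjusted p = 0.975, edgeR) and 0.39 at 12 weeks (adjusted p = 0.361, edgeR). Without 12-week KO replicate 1, the library below the WT libraries, Gpr160 was called higher at 12 weeks (log2 change 0.60, adjusted p = 0.046, edgeR).

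Gpr108 and Gpr107, multipass proteins of the Golgi, overlapped between genotypes at both ages. Gpr108 had 106, 103, 65.7 and 131 CPM in 6-week WT and 107, 112, 107 and 111 CPM in 6-week KO. It had 49.5, 89.6, 58.4 and 137 CPM in 12-week WT and 80.9, 84.0, 106 and 85.7 CPM in 12-week KO. The WT libraries of Gpr108 were far more scattered than the KO libraries, and its log2 change was 0.13 ± 0.26 at both ages. Gpr107 had 80.1, 107, 79.2 and 86.5 CPM in 6-week WT and 93.9, 91.9, 122 and 81.1 CPM in 6-week KO. It had 90.5, 70.2, 52.3 and 62.7 CPM in 12-week WT and 71.9, 106, 88.5 and 80.0 CPM in 12-week KO. Its log2 changes of 0.14 and 0.35 did not pass (adjusted p = 1 and 0.373, edgeR).

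Gpr146, an orphan receptor known for an effect on plasma cholesterol, had 103, 82.8, 79.2 and 90.2 CPM in 6-week WT and 73.2, 64.4, 90.6 and 39.3 CPM in 6-week KO. It had 61.5, 84.0, 54.5 and 80.0 CPM in 12-week WT and 45.1, 78.1, 65.7 and 89.4 CPM in 12-week KO. Its log2 change was -0.41 ± 0.25 at 6 weeks (adjusted p = 0.869, edgeR) and -0.01 at 12 weeks (adjusted p = 0.996, edgeR), with overlap at both ages. The lysosomal protein Gpr137b had 49.2, 36.0, 58.0 and 68.2 CPM in 6-week WT and 61.9, 82.8, 85.7 and 77.7 CPM in 6-week KO. It had 67.5, 53.7, 47.5 and 45.8 CPM in 12-week WT and 52.6, 87.3, 75.2 and 43.0 CPM in 12-week KO. Its log2 change of 0.53 ± 0.24 at 6 weeks did not pass (adjusted p = 0.637, edgeR), and at 12 weeks the groups lay within each other.

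**Figure D5:**
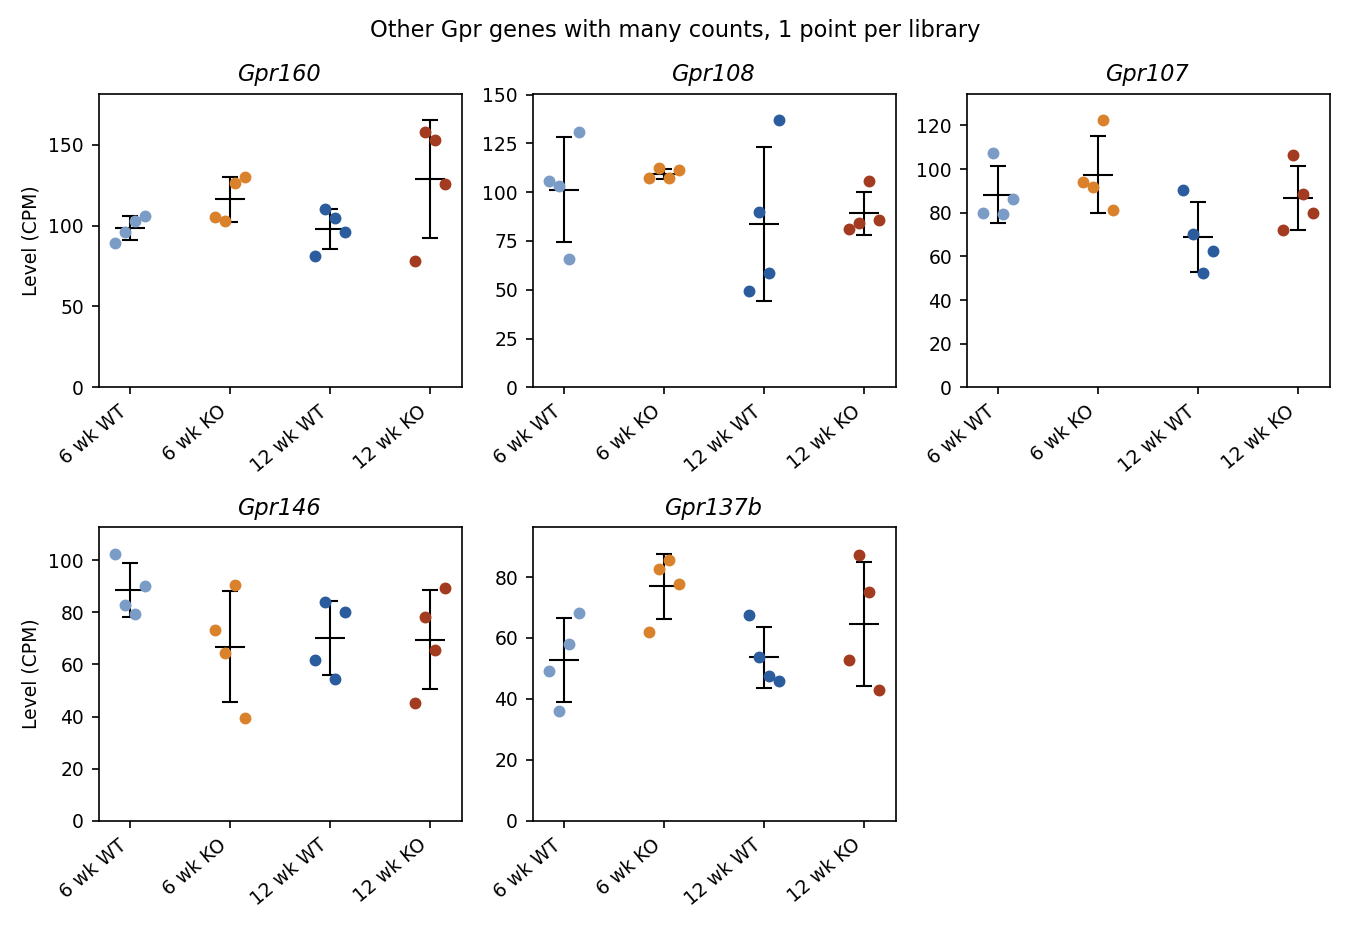
Level in CPM (y axis, from 0) of the other 5 of the 10 members with the most counts, in each library by group (x axis), with the mean and SD of 4 libraries in black. WT and KO libraries of each age overlap in all 5 genes.

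The receptors for lysophospholipids, oxysterols and fatty acids were 6 members, of which 5 were tested. Of these, 1 was called higher at 6 weeks, and 1 higher and 2 lower at 12 weeks, namely Gpr84, Gpr34 and Gpr183, where 0.872% and 2.98% of all genes were called at these ages. The genes of this list were known from earlier results of these data. Gpr35 had 12.6 ± 4.50, 20.2 ± 15.7, 6.85 ± 7.33 and 14.9 ± 16.8 CPM in 6-week WT, 6-week KO, 12-week WT and 12-week KO, with SDs as large as the means at 12 weeks. Gpr18, which lies beside Gpr183 within the span of Ubac2, had 4 counts in 1 library of 12-week WT, and 82, 48, 1 and 24 counts in 12-week KO. Its log2 change of 5.17 ± 1.51 rests on those few counts, depends on the prior count and did not pass (adjusted p = 0.0848, edgeR), although DESeq2 called it. Gpr55 was below the filter.

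Gpr4, a proton-sensing receptor like Gpr65, was tested and did not pass. The highest group mean of Gpr4 was 2.60 ± 2.999 CPM, in 6-week KO. The leukocyte receptors, a list that holds Gpr183, Gpr65, Gpr18 and Gpr35 again, numbered 7, of which 6 were tested. Of them Gpr183 was called, at 12 weeks, where 2.98% of all genes were called. The highest group mean of Gpr171 was 4.52 ± 2.72 CPM, in 6-week KO. Gpr82, the neighbour of Gpr34 within the span of Cask, had 1.51 ± 1.79, 1.103 ± 0.863, 0.988 ± 1.29 and 3.94 ± 2.38 CPM in the 4 groups, 6-week WT first and 12-week KO last. It did not show the level of its abundant neighbour in any group.

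The multipass proteins of inner membranes numbered 7 and were all tested. Gpr155 was the 1 that passed, at 12 weeks, where 2.98% of all genes passed. Gpr89, a Golgi channel protein, had group means from 29.2 ± 4.34 to 41.9 ± 22.4 CPM, and Gpr137 from 12.97 ± 4.77 to 15.9 ± 4.33 CPM. Gpr137c did not exceed 3.66 ± 3.70 CPM. Gpr180, which belongs to none of the role lists, had 27.1 ± 9.64 CPM in 6-week WT and 38.1 ± 7.98 CPM in 6-week KO, and 28.4 ± 10.4 and 27.5 ± 8.52 CPM in 12-week WT and KO. The ciliary receptors Gpr157 and Gpr19 did not pass, and Gpr161 was below the filter.

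Members best known from neurons and other glia had low levels, with group means of at most 7.51 CPM. The 17 neuronal orphan receptors included 10 that were tested, none of which passed, and the highest group mean among them was that of Gpr85, 7.51 ± 4.72 CPM in 12-week WT. RNA of the 9 neuronal markers was present in every library, as given above, and its part in these low levels was not tested. Gpr37 and Gpr37l1, known from oligodendrocytes and astrocytes, had group means of up to 1.23 ± 1.31 and 2.19 ± 1.52 CPM, and Gpr17 and Gpr62 of that list were below the filter. The class C receptor Gpr158 had 4.11 ± 1.85 CPM in 6-week WT and 0.993 ± 0.735 CPM in 12-week KO and did not pass.

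Gpr3, Gpr6 and Gpr12, receptors that raise cAMP without a ligand, were all below the filter. Gpr3 had no count in either KO group, where 3 counts over the group would be 0.0551 CPM at 6 weeks and 0.0847 CPM at 12 weeks. The same held for Gpr75 and Gpr52, whereas Gpr149, Gpr17 and Gpr141 had no count in either WT group. Gpr75, Gpr39 and Gpr182 were also below the filter, with group means of at most 1.74 ± 3.48 CPM, that of Gpr75 in 12-week WT, where 1 library held all its counts. At this depth the 19 members below the filter were left out of the test. With no filter on low counts, edgeR called none of them between genotypes at either age. The share of other low-count genes with such empty groups was not determined.

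Age was compared within each genotype. In WT, edgeR called 0 of the 36 members between 6 and 12 weeks, where 0.0117% of all genes were called. An unadjusted p under 0.05 was reached by 6 members, against 7.44% of all genes. DESeq2 also called 0 members, with 152 genes called in all. Gpr34 was the 1 member whose 12-week libraries all lay higher, 2.78% of members against 2.31% of all genes, with a log2 change of 0.30 ± 0.10 (adjusted p = 0.457, edgeR). Gpr155, Gpr165 and Gpr37l1 lay lower without overlap, 8.33% of members against 3% of all genes. The change of Gpr165 in WT was -0.88 ± 0.31 (adjusted p = 0.517, edgeR) and that of Gpr155 was -0.28 ± 0.13 (adjusted p = 0.659, edgeR).

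In KO, edgeR again called 0 of the 36 members with age, against 0.0234% of all genes, 0.0176% lower and 0.00585% higher. An unadjusted p under 0.05 was reached by 4 members and by 8.8% of all genes. DESeq2 called 3, Gpr155, Gpr165 and Gpr183, but it called far more genes than edgeR here, 270 in all. The log2 change was -0.77 ± 0.13 for Gpr155 (adjusted p = 0.0545, edgeR), -1.56 ± 0.32 for Gpr165 (0.12) and -0.43 ± 0.10 for Gpr183 (0.169). These 3 and Gpr108 had all 12-week libraries below all 6-week libraries, 11.1% of members against 3.51% of all genes. Gpr65 alone lay higher, 2.78% against 3.05%, with a log2 change of 1.02 ± 0.41 (adjusted p = 0.475, edgeR). Gpr34 did not share this pattern: its KO means were 2643 CPM at 6 weeks and 2492 CPM at 12 weeks, and the libraries overlapped.

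Whether the genotype effect itself differed between the ages was tested as an interaction, which called 0 members, against 0.00585% of all genes. An unadjusted p under 0.05 was reached by 4 members, against 4.74% of all genes. DESeq2 called 0 members, with 55 genes called in all. For Gpr183, with no difference at 6 weeks and a fall at 12 weeks, the difference between the effects was -0.45 (adjusted p = 0.932, edgeR; interval -0.73 to -0.17). It was -0.38 for Gpr34, -0.49 for Gpr155, -0.68 for Gpr165 and 0.27 for Gpr84, each with an adjusted p of 1 in edgeR's test. Both ages use different libraries, so the effects at 6 and 12 weeks share no samples. The larger changes at 12 weeks were therefore not shown to differ from those at 6 weeks.

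Genes that make or remove ligands of these receptors were taken from lists by pathway. Of 5 genes of oxysterol synthesis and breakdown, 3 were tested. Ch25h was called at both ages, where 0.872% of all genes were called at 6 weeks and 2.98% at 12 weeks. Ch25h, cholesterol 25-hydroxylase, makes the precursor of the Gpr183 ligand. In KO it rose from a mean of 18.2 ± 5.59 CPM to 73.4 ± 17.1 at 6 weeks (log2 change 2.07 ± 0.37, adjusted p = 0.0114, edgeR) and from 14.7 ± 9.38 to 82.9 ± 16.8 CPM at 12 weeks (2.58 ± 0.38, adjusted p = 0.000955). At 6 weeks Gpr183 itself had a log2 change of 0.00 (-0.20 to 0.20) and at 12 weeks one of -0.45, a call kept in 8 of 16 fits that left out 1 library. Cyp27a1 and Hsd3b7 did not pass, and neither did Ch25h with age in KO (0.25 ± 0.36, adjusted p = 0.946, edgeR).

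Of 6 genes of lysophosphatidylserine metabolism, 5 were tested and 1 was called, at 12 weeks, where 2.98% of all genes were called. The mean of Ptdss1, a phosphatidylserine synthase, was 42.5 ± 4.50 CPM in WT and 69.8 ± 6.03 in KO; it rose by a log2 change of 0.72 ± 0.16 (adjusted p = 0.019, edgeR). Abhd12 and Abhd6, lipases that act on lysophosphatidylserine and related lipids, did not pass at either age. None of 8 tested genes of medium-chain fatty acid oxidation, the pathway that consumes the ligands of Gpr84, was called in any comparison. Between genotypes, 1 had an unadjusted p under 0.05 at 12 weeks, against 14.4% of all genes, and 0 at 6 weeks, against 7.31%.

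Downstream of the receptors, 2 genes passed, both at 12 weeks, where 2.98% of all genes did. None of 13 tested G protein alpha subunits, 7 receptor kinases and arrestins, 9 adenylyl cyclases and 4 phospholipase C beta genes was called by edgeR in any comparison. At 6 weeks 1 alpha subunit, 1 beta or gamma subunit and 1 receptor kinase or arrestin had an unadjusted p under 0.05, against 7.31% of all genes. At 12 weeks 4 beta and gamma subunits, 2 RGS genes, 2 adenylyl cyclases and 1 phospholipase C beta gene did, against 14.4% of all genes. Of 12 tested beta and gamma subunits, Gng2 fell at 12 weeks from 134 ± 20 to 68.0 ± 15 CPM (log2 change -0.98 ± 0.22, adjusted p = 0.0211, edgeR). Of 15 tested RGS genes, Rgs2, which shortens G protein signals, fell at 12 weeks from 516 ± 77.2 to 364 ± 34.1 CPM (-0.50 ± 0.12, adjusted p = 0.0402, edgeR).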

How the data were processed

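The members and all gene lists were chosen with earlier results of these data known. The authors deposited raw counts per gene and library. Per the submitters' processing notes, the tools included FastQC 0.11.9, cutadapt 2.10, TopHat, SAMtools 1.10, Picard 2.13.2 and HTSeq 0.11.0, with build GRCm39. Annotation release and strand setting: not given in the sources used here. Genes that overlap others are therefore uncertain. Samples were grouped by the labels' genotype and age. Each group held male and female libraries, which cannot share an animal. Nothing in the labels says that libraries of the same sex and group came from separate animals. The p-values, with sex fitted, therefore measure a spread between these libraries that may be technical.

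From these counts, filterByExpr (minimum count 10, by group) in R 4.3.3 left 17090 genes, scaled by TMM. One edgeR 4.0.16 quasi-likelihood model of group and sex was fitted to all 16 libraries. P-values are two-sided and Benjamini-Hochberg adjusted over all genes tested. The common dispersion was 0.421. CPM are on scaled library sizes, with mean ± SD over 4 libraries. The standard error is approximate, the absolute change over the root of the F statistic, and intervals are 1.96 of it either way. Floors of 3 counts cover counting error only.

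On simulated 12-week data (17090 genes), the 200 changed genes were drawn from those with a mean of at least 20 CPM. Of these, the test recovered 52% of 2-fold and 93% of 4-fold changes, and 4.61% of calls were false. The recovery rates do not cover members with lower levels.

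Values of every library are given for Gpr34, Gpr84, Gpr155, Gpr165 and Gpr183, for members past the threshold and for the 10 members with most counts. Those of Gpr65 and Gpr18 are added after their values were seen, as are Gpr157 and the genes that overlap members. Pathway genes past the threshold are named, with values from the fit to all 16 libraries only. Role and marker lists were written from general knowledge. RefSeq windows and GENCODE exon lengths are of build GRCm38. Alternatives were another scaling (RLE), no filter or a minimum count of 50, no sex term, DESeq2 1.42.0, only the groups compared, a replicate block, and leaving out libraries. Values of some members are not reported here.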

Additional observations from a re-analysis of the deposited data

Results flagged for a closer look

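In 12-week KO, the ratio of Gpr84 counts to Gpr165 counts was 35.9 in replicate 2, where the other 3 libraries lay between 4.58 and 7.41. The gap to the nearest library was 0.91 of the group's range, above Dixon's critical value for 4 values. Replicate 2 had both the highest Gpr84 level (508 CPM) and the lowest Gpr165 level (14.1 CPM) of its group. It was the 1 such case among 56 groups of 4 libraries examined, and chance gives about 1 in 20. Without this library both genes were still called at 12 weeks by edgeR, with log2 changes of 0.84 for Gpr84 and -1.84 for Gpr165.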

How the results depend on the processing

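At 6 weeks, 2 members were called; leaving out 1 library gave 0 to 2 (0 without any of the 4 KO libraries or WT replicates 1, 3 or 4), and no filter on low counts and DESeq2 gave 4 each, adding Gpr34 and Gpr65. At 12 weeks, 5 were called, and 4 to 6 with 1 library left out. No filter and DESeq2 gave 7 each there, adding Gpr65 and Gpr18, a minimum count of 50 and no sex term gave 6 each, adding Gpr65, and the 2 groups alone gave 4, without Gpr183. In WT with age no filter gave 1 member (Gpr165). In KO with age no filter gave 2 (Gpr155, Gpr165), a minimum count of 50 gave 1 (Gpr155), no sex term gave 1 (Gpr155) and DESeq2 gave 3. The interaction gave 0 in all 23 alternatives.

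Calls over all genes moved as well. At 6 weeks there were 149, but 353 with no filter, 366 with DESeq2 and 82 to 155 with 1 library left out; at 12 weeks 510, but 1073, 1158 and 328 to 464, and 204 from the 2 groups alone. With age the 2 in WT became 194 and 152, and the 4 in KO 204 and 270, with no filter and with DESeq2. The interaction's 1 became 132 and 55.

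No label says that equal replicate numbers pair the libraries. Deviations of same-numbered libraries, with group and sex fitted, correlated between -0.379 and 0.00428. The fitted sex term itself ties the deviations of female libraries to each other, so these values cannot exclude pairing. With a replicate block, 2 members were called at 12 weeks (Gpr34, Gpr165), with 68 genes in all (not called were Gpr84 at 0.68, adjusted p = 0.116, Gpr155 at -0.72, 0.139, and Gpr183 at -0.62, 0.1, edgeR), and 2 at 6 weeks, with 94; the block leaves 4 residual degrees of freedom and no sex term.

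Reversed signs were confined to changes that passed in no setting. Gpr146 at 12 weeks was 0.01 with RLE, no filter, DESeq2, only the groups compared, or without WT replicates 3 and 8, was 0.02 with a minimum count of 50 and 0.09 with the block, and ranged from -0.14 to 0.18 with 1 library left out. Gpr183 at 6 weeks was 0.00 with no filter and ranged from -0.06 to 0.07. With 1 library left out, Gpr108 ranged from -0.02 to 0.23 at 6 weeks and from -0.04 to 0.47 at 12 weeks, where the block gave 0.51. With the block, Gpr137b at 12 weeks was -0.08 and the Gpr84 interaction -0.07. The causes were not tested. Depth limits the 39 members under 1000 summed counts.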
